A study of Mus musculus with 9 samples.

Results

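Thymic iNKT cells receive IL-15, IL-2 and IL-7 through a small set of receptor chains, kinases and transcription factors, and 9 genes of that route were described here out of the 21883 genes of the expression table. The 9 genes were taken by name for their role, with no measured value in the rule, though with earlier results of these data known: the receptor chain genes *Il2rb*, *Il2rg*, *Il15ra* and *Il7r*, the kinase genes *Jak1* and *Jak3*, the transcription factor genes *Stat5a* and *Stat5b*, and the feedback inhibitor gene *Cish*. All 9 lay above an FPKM of 0 in all 9 libraries. RNA of iNKT cells sorted from the thymus of C57BL/6 mice was sequenced in 9 libraries, with 3 from WT cells of stage 2, 3 from WT cells of stage 3 and 3 from *Med23*-deficient cells of stage 2. The WT mice were 6 weeks old according to the series description, and the methods give 1 range of ages for all mice of the study without the age of the *Med23*-deficient mice sequenced. These mice carried floxed *Med23* alleles and a *Cd4*-*Cre* transgene that removes *Med23*, a subunit of the Mediator complex, by the double-positive thymocyte stage. Deletion was therefore not restricted to iNKT cells, and all other T cells of these mice that pass that stage carried it too. Stage 2 and stage 3 are the steps of iNKT maturation before and after the surface receptor NK1.1 appears.

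IL-2 and IL-15 signal through a shared pair of chains, IL-2Rβ and the common gamma chain, while IL-7 uses the IL-7Rα chain with the same gamma chain. JAK1 and JAK3 sit on these chains and phosphorylate STAT5, which enters the nucleus and turns on survival, growth and feedback genes such as *Cish*. IL-15 is known to be needed for the survival and terminal maturation of iNKT cells in the thymus, and IL-7 for their earlier expansion.

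The first questions for such a gene set are where the genes start and whether the DNA before the start holds the letters that STAT5 is known to bind. RefSeq promoter windows on GRCm38.p6, the assembly of mm10, were matched for 8 of the 9 genes, with no entry for *Il2rb*. The 8 genes had 11 windows of the 250 bases before a listed start. The STAT5 consensus TTCNNNGAA, which reads the same on both strands, was found in 1 of them, that of *Il7r*. In the reference it was found in 7.02% of the 32851 windows of the same length. All windows but that of *Il2rg* and 1 of *Stat5b* overlapped annotated exons of their own gene, and DNA outside the windows was not searched. The *Cish* window (107296409 to 107296658) lies inside the span of that gene, which begins at 107296026. The T-box motif AGGTGTGA, searched on both strands, was found in a window of *Stat5a* and in 1.12% of all windows. The 160 bases next to the start are shown for *Il7r*, because it holds the match, and for *Il2rg*, which encodes the partner chain and holds none. Both lie on the minus strand, at chr15:9529877-9530036 and chrX:101268256-101268415, overlap no annotated exon, and are written 5′ to 3′ with the match in capitals.
Il7r: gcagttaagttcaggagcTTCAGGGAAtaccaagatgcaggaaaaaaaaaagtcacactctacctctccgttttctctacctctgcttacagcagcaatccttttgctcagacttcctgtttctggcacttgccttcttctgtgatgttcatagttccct
Il2rg: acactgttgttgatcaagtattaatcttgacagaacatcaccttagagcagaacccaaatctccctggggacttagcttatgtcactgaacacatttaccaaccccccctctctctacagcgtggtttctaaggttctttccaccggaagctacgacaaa
The match TTCAGGGAA begins 142 bases before the *Il7r* start. It is a match of letters and was not measured as a bound site.

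Each library detected 15584 to 17333 genes, and the depth of the libraries is unknown because no read counts were used. The T cell genes that define the population were high throughout, and the summed FPKM of 8 iNKT and T cell markers ran from 991 to 1506 per library. The 4 markers of stage 3, *Klrb1c*, *Klrd1*, *Klrk1* and *Tbx21*, summed to between 42.5 and 69.4 in WT stage 2. They summed to between 226 and 281 in WT stage 3, and between 42.2 and 47.6 in *Med23*-deficient cells. *Klrb1c*, the gene of the sort marker NK1.1, had 7.65 to 26.2 FPKM in WT stage 2, 57.3 to 95.1 in WT stage 3 and 2.61 to 4.60 in *Med23*-deficient cells. *Klrd1* and *Klrk1* were also lower in every *Med23*-deficient than in every WT stage 2 library. *Tbx21* (34.9 to 43.6) made up most of the *Med23*-deficient sum. Markers of double-positive thymocytes summed to at most 5.05 of FPKM, of myeloid cells to at most 2.33 and of epithelial cells to at most 1.07. Of the B cell markers, *Blk* was at 4.53 to 6.76 in WT stage 2 and at 0 in all *Med23*-deficient libraries, *Cd79a* and *Cd79b* were at or near 0 in every library, and the part of these cells in the results was not tested. Markers of NK and innate lymphoid cells summed to 8.02 to 11.8 in WT stage 2, 0.41 to 2.55 in WT stage 3 and 7.82 to 9.51 in *Med23*-deficient cells, nearly all from *Rora*, and those of erythroid cells to at most 0.75. *Med23* itself (chromosome 10, 24869986 to 24913681, mm10) had an FPKM of 5.51, 5.15 and 6.74 in WT stage 2 and of 4.80, 3.6 and 3.92 in *Med23*-deficient stage 2 cells. The groups did not overlap, but the log2 fold change of -0.41 (SE 0.18, limma adjusted p = 0.552) did not pass a threshold, and the values are of the whole gene, with the deleted exons not given in the sources used here. The replicate 3 library of each group detected the most genes, and *Med23*-deficient replicate 3 correlated with WT stage 3 replicate 3 at r = 0.919 over genes, within the range of 0.914 to 0.932 seen between libraries of the same group. *Med23*-deficient replicate 3 was also the highest of its group for *Il2rb*, *Il7r*, *Il15ra*, *Jak3* and *Cish*, so results that rest on it are given with and without it.

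FPKM counts fragments per length of transcript, so levels can be compared between genes. *Il2rb*, *Il7r*, *Il2rg* and *Jak1* were abundant, and the other 5 genes, *Il15ra* among them, were far lower. Averaged over the 9 libraries, *Il2rb* stood at 187 FPKM, *Il7r* at 151, *Il2rg* at 140 and *Jak1* at 101, which placed them at ranks 146, 175, 188 and 273 of the 21883 genes. *Stat5b* averaged 18.5 and *Jak3* 16.8 FPKM, *Stat5a* 5.44, *Cish* 4.54 and *Il15ra* 1.11. *Stat5b* lay above *Stat5a* in all 9 libraries, with a log2 ratio of *Stat5a* to *Stat5b* of -1.88 to -1.16 within a library. Because 608 of the 3839 stretches of 50 bases in the longest *Stat5a* transcript (15.8%) also occur in the longest *Stat5b* transcript, reads can be split between these neighbors, and both values are uncertain to that extent. *Stat5a* also overlaps *Stat3* on the opposite strand (mean 13.6 FPKM), *Jak1* overlaps *Raver2* on the opposite strand (5.12) and the pseudogene *Gm12785* on its own (3.68), and *Jak3* overlaps *Insl3* on its own strand (0.784). *Il2rg* overlaps *Gm20489* on its own strand (0.703). On the opposite strand *Cish* overlaps *Gm17041* (0.0411) and *Gm17040* (0.0133), and *Jak1* overlaps *Gm24468* (0.00444). The kit keeps strand, but whether quantification used it is not given in the sources used here.

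**Figure D1:**
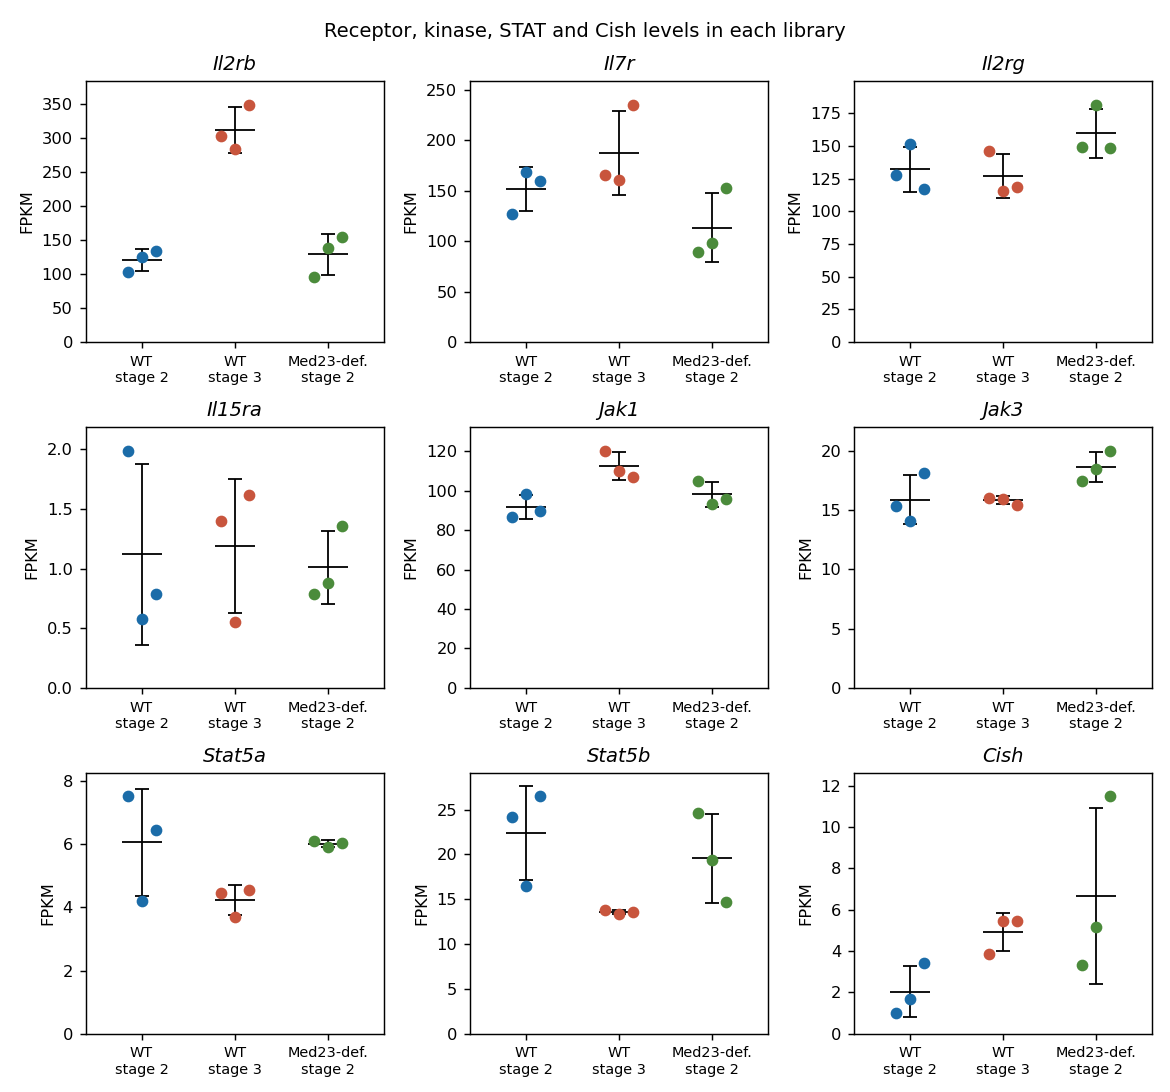
FPKM (y axis, linear, from 0) of each of the 9 genes by group (3 libraries each), with points for libraries, a long bar for the group mean and whiskers for the SD. The 3 WT stage 3 libraries stand at 283 to 348 FPKM for *Il2rb*, above all libraries of the other groups, while *Cish* in *Med23*-deficient cells spreads from 3.34 to 11.5.

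The order of the 3 abundant receptor chains differed between the groups. In WT stage 2 the means were 152 ± 21.8 FPKM (SD, n = 3) for *Il7r*, 132 ± 17.4 for *Il2rg* and 121 ± 15.6 for *Il2rb*, and neighbors in that order overlapped between libraries. In WT stage 3 *Il2rb* stood first at 311 ± 33.5, then *Il7r* at 187 ± 41.7 and *Il2rg* at 127 ± 16.9 (SD, n = 3), and no library of one gene reached the range of the next. In *Med23*-deficient stage 2 cells *Il2rg* led with 160 ± 18.9, followed by *Il2rb* with 129 ± 29.98 and *Il7r* with 113 ± 34.5 (SD, n = 3), again with overlap between neighbors.

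Maturation was examined first, by comparing WT stage 3 with WT stage 2. *Il2rb* and *Cish* rose, *Stat5b* had lower values in every stage 3 library without reaching a 2-fold change, and no other gene of the 9 was called. Here a gene is said to rise or fall where its fold change was at least 2, with 1 added to the FPKM before taking log2, and its unadjusted limma p at most 0.05. By this rule 2 of the 9 genes were called, both higher, beside 3.6% of the 20689 genes tested. After adjustment 1 of the 9 still had a p of 0.05 or less, beside 1.67% of all genes. The libraries of the 2 stages did not overlap for 4 of the 9 (3 higher, 1 lower), beside 17.8% of all genes. Such shares of all genes include genes near 0, whereas the 9 lay above 0 in every library, so the 2 are not fully alike. The median log2 fold change of the 9 was 0.07, and that of all genes tested was -0.01. In these bulk samples, fewer cells that carry a transcript and less of it per cell cannot be told apart.

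*Il2rb* (ENSMUSG00000068227, chromosome 15, 78480553 to 78495066, minus strand, mm10) encodes IL-2Rβ, the chain shared by the IL-2 and IL-15 receptors. Its FPKM was 103, 125 and 134 in WT stage 2 and 302, 283 and 348 in WT stage 3. The lowest stage 3 library was thus more than 2 times the highest stage 2 library. The log2 fold change was 1.36 (SE 0.14, 95% confidence interval 1.03 to 1.69), with a limma adjusted p of 0.0171. It passed the fold and p thresholds under all 19 alternative settings, but the limma adjusted p ranged from 0.00356 to 0.247 over them and met the threshold in 11. When single libraries were left out the adjusted p was between 0.0487 (replicate 1 of WT stage 2 left out) and 0.0678 (replicate 3 of WT stage 3 left out), so the call by adjusted p was lost for each of the other 5 libraries left out.

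None of the other receptor chains passed a threshold between the stages. *Il7r* (chromosome 15, 9506161 to 9529876), the IL-7 receptor alpha chain gene, had 127, 169 and 160 FPKM in WT stage 2 and 165, 161 and 235 in WT stage 3. These ranges overlap, and the log2 fold change was 0.29 (95% confidence interval -0.17 to 0.75, limma adjusted p = 0.611). *Il2rg* (chromosome X, 101264378 to 101268255), the common gamma chain gene, had 128, 151 and 117 FPKM in stage 2 and 146, 116 and 118 in stage 3. Its log2 fold change was -0.06 with an interval of -0.40 to 0.28. *Il15ra* (chromosome 2, 11705290 to 11734317) encodes the chain that mainly presents IL-15 to neighboring cells, and its FPKM lay between 0.55 and 1.99 in the 6 libraries, with an interval of -0.79 to 0.92 that leaves its change unresolved.

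Among the kinases, *Jak1* (chromosome 4, 101152367 to 101265282), whose product binds IL-2Rβ and IL-7Rα, had 86.6, 98.3 and 89.8 FPKM in WT stage 2 and 120, 110 and 107 in WT stage 3. Every stage 3 library lay above every stage 2 library, but the difference was small, with a log2 fold change of 0.29 (SE 0.09, limma adjusted p = 0.222). *Jak3* (chromosome 8, 71676296 to 71690575), whose product binds the gamma chain, had 15.4, 14.1 and 18.2 FPKM in stage 2 and 16.1, 16.0 and 15.5 in stage 3. The stage 3 values of *Jak3* lay inside the stage 2 range, and the interval of its log2 fold change was -0.28 to 0.29.

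The STAT5 genes, which carry the signal to the nucleus, passed no threshold. *Stat5b* (chromosome 11, 100780731 to 100850724) had 24.2, 16.5 and 26.5 FPKM in WT stage 2 and 13.8, 13.4 and 13.6 in WT stage 3, so that the stages did not overlap. Its log2 fold change of -0.65 (SE 0.18, limma adjusted p = 0.184) stayed short of a 2-fold change. *Stat5a* (chromosome 11, 100859351 to 100885169) had 7.52, 4.19 and 6.47 FPKM in stage 2 and 4.45, 3.69 and 4.56 in stage 3. Its stages overlapped, with a log2 fold change of -0.41 and an interval of -0.97 to 0.16.

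*Cish* (chromosome 9, 107296026 to 107302784) encodes an SH2 protein that STAT5 induces and that dampens cytokine receptor signaling. Its FPKM was 1.01, 1.70 and 3.41 in WT stage 2 and 3.84, 5.48 and 5.44 in WT stage 3. All stage 3 libraries lay above the stage 2 libraries, although stage 2 replicate 3 came close. The log2 fold change was 1.03 (SE 0.34) and the limma adjusted p 0.262 (0.135 to 0.516 over the alternatives). As FPKM without the added 1, the stage 3 mean was 2.41 times the stage 2 mean. Leaving out replicate 1 (log2 fold change 0.77) or 2 (0.98) of WT stage 2, or replicate 2 (0.95) or 3 (0.96) of WT stage 3, ended the call, as did the TPM scale (0.84).

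**Figure D2:**
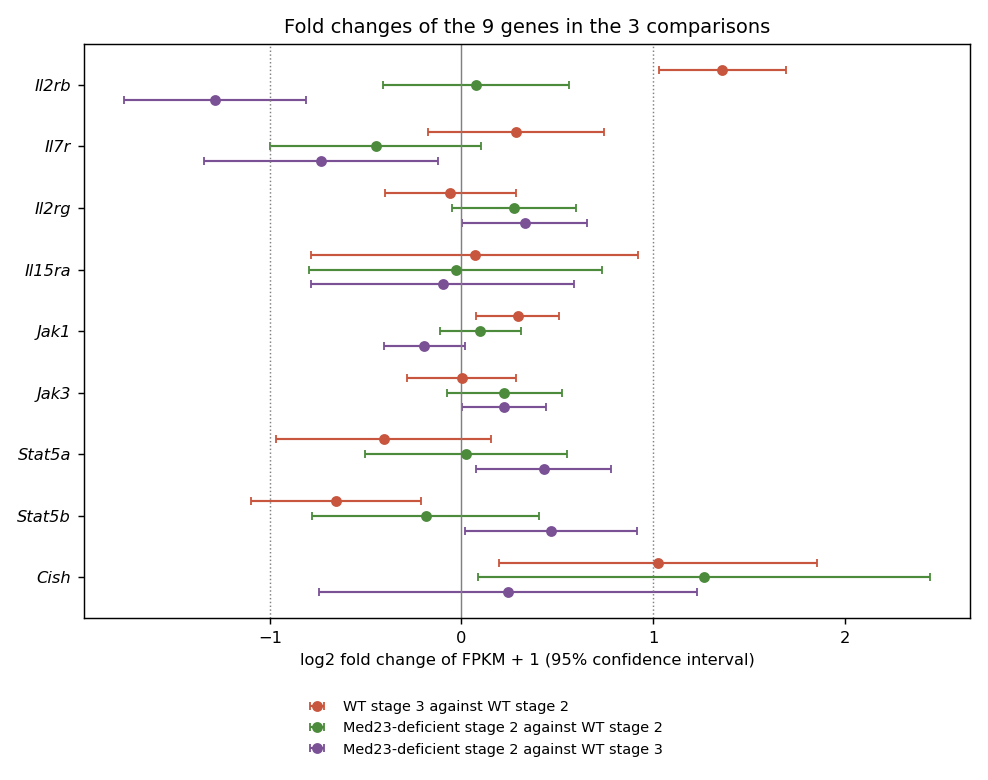
Log2 fold change of FPKM + 1 (x axis) for the 9 genes (y axis) in the 3 comparisons, with points for the limma estimate, bars for its 95% confidence interval and dotted lines at a 2-fold change. *Il2rb* lies at 1.36 for WT stage 3 and at 0.08 for *Med23*-deficient stage 2, each against WT stage 2, while *Cish* lies past 1 in both; the comparisons share libraries.

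Other genes of the route were looked at in 7 lists, of ligands, other receptor chains, other JAK and STAT genes, inhibitors, adaptor kinases, known STAT5 targets and known regulators of *Il2rb* or *Il7r*. Of the 64 tested in the WT comparison, 8 were called by fold and p (6 higher, 2 lower) and 6 by adjusted p, all higher, which is 12.5% and 9.38% of them beside 3.6% and 1.67% of all genes. The shares of all genes include genes near 0, which cannot reach 2-fold with 1 added, so the contrast is overstated. With only the 11781 genes averaging 1 FPKM or more fitted, 347 were called higher and 351 lower by fold and p, and 229 and 267 by adjusted p. The median log2 fold change of the 64 list genes was 0.08, and that of the 11781 genes was -0.05. The largest increase was in the target list, where *Gzmb*, the cytotoxic protease granzyme B, went from 11.4, 14.4 and 10.2 FPKM to 149, 211 and 164, a log2 fold change of 3.76 (limma adjusted p = 0.00368). A further 2 targets rose: the survival gene *Bcl2*, from 11.4 ± 4.12 to 37.3 ± 11.0 FPKM (SD, n = 3; log2 fold change 1.65, limma adjusted p = 0.074), and the kinase gene *Pim1*, from 9.76 ± 2.39 to 24.2 ± 1.48 (1.25, limma adjusted p = 0.042). In the same list *Lta*, the cytokine lymphotoxin alpha, fell from 4.61 ± 1.36 to 1.70 ± 0.834 FPKM (SD, n = 3; -1.07, limma adjusted p = 0.227). The fold and p call of *Lta* was lost when replicate 1 (-0.93) or 3 (-0.99) of WT stage 2 or replicate 3 of WT stage 3 (-0.86) was left out. *Ccnd2*, the cyclin with the highest level in that list, had 67.6 to 76.5 FPKM in stage 2 and 73.7 to 83.3 in stage 3.

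Of the 10 known regulators of *Il2rb* or *Il7r*, 1 rose past 2-fold. *Tbx21*, the gene of T-bet, had 37.2, 30.5 and 20.4 FPKM in WT stage 2 and 90.7, 62.0 and 66.9 in WT stage 3 (log2 fold change 1.31, limma adjusted p = 0.0742). *Runx3*, another activator, had 37.5, 50.1 and 38.8 FPKM in stage 2 and 76.1, 75.8 and 79.1 in stage 3 (0.87, limma adjusted p = 0.0399). *Id2*, the most abundant of the list, averaged 267 and 433 FPKM, with a log2 fold change of 0.70 (limma adjusted p = 0.0515) below both thresholds. By unadjusted p of at most 0.05 alone, 3 regulators lay higher in stage 3 and 3 lower. The lower ones, named after their values were seen, were *Runx1* (log2 fold change -0.66, limma adjusted p = 0.1001), *Foxo1* (-0.60, limma adjusted p = 0.235) and *Gfi1* (-0.60, limma adjusted p = 0.336), each without overlap between the stages.

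Among the other receptor chains, *Il4ra* rose from 5.46 ± 1.099 to 12.05 ± 1.02 FPKM (SD, n = 3; log2 fold change 1.02, limma adjusted p = 0.0473), and *Il21r*, the most abundant, averaged 17.5 and 27.8 FPKM (0.63, limma adjusted p = 0.103). The fold and p call of *Il4ra* was lost when replicate 1 (0.95) or 3 (0.96) of WT stage 2 or replicate 1 of WT stage 3 (0.97) was left out. The ligand *Il4* fell from 19.8 ± 5.21 to 5.54 ± 2.03 FPKM (SD, n = 3; -1.69, limma adjusted p = 0.058). The genes of IL-2, IL-15 and IL-21 were at or near 0, with no library above 0.92. *Stat4*, which responds to IL-12, rose from 7.30 ± 3.08 to 27.0 ± 2.43 FPKM (SD, n = 3; log2 fold change 1.83, limma adjusted p = 0.0561). Of the 18 inhibitors, *Socs2*, a feedback gene of the same family as *Cish*, passed the adjusted p alone, with 0.08, 0.19 and 0.12 FPKM in stage 2 and 1.12, 1.17 and 1.28 in stage 3 (0.96, limma adjusted p = 0.0343, or 2.51 with 0.1 added to the FPKM in place of 1). The phosphatase gene *Ptpn6* was the most abundant inhibitor, at 146 to 164 FPKM in stage 2 and 172 to 250 in stage 3. *Pik3cd*, the PI3K subunit gene of lymphocytes and the most abundant of the adaptor kinases, averaged 45.6 and 68.7 FPKM (0.58, limma adjusted p = 0.0295).

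**Figure D3:**
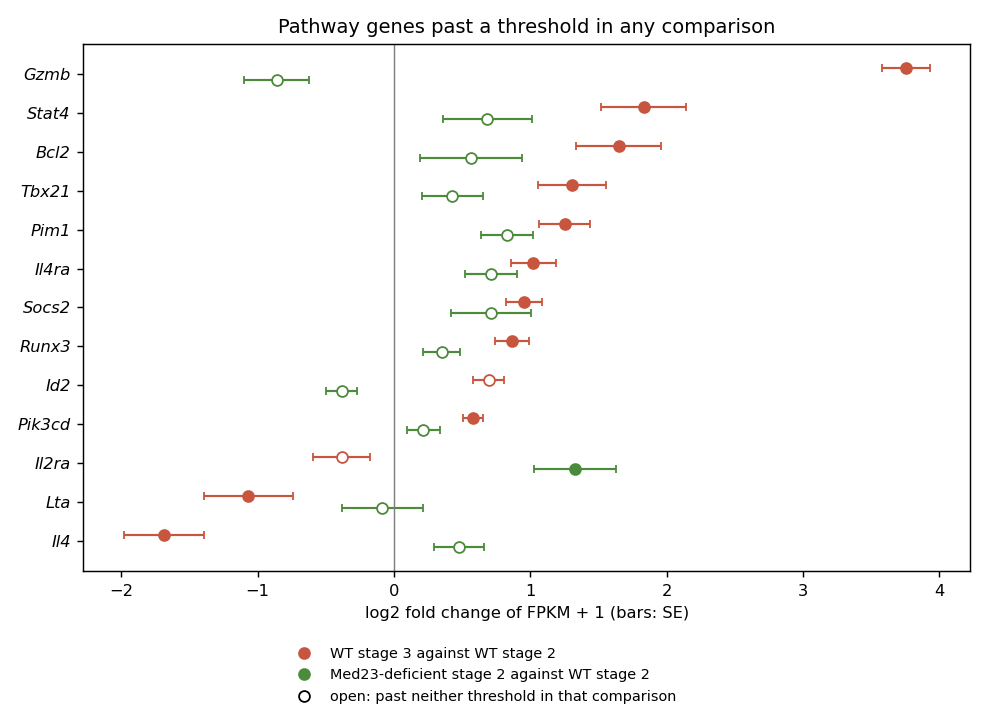
Log2 fold change of FPKM + 1 (x axis) with its SE for the 13 list genes that passed a threshold in any comparison (y axis), for WT stage 3 and for *Med23*-deficient stage 2, each against the same WT stage 2 libraries. Filled points passed a threshold in that comparison: in the *Med23*-deficient comparison the only filled point is *Il2ra* at 1.33, and *Gzmb* stands at 3.76 and -0.86.

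Loss of *Med23* was examined next, by comparing *Med23*-deficient with WT cells of stage 2, and of the 9 genes only *Cish* was called. By fold and p 1 of 9 was higher, beside 2.11% of the 20674 genes tested. By adjusted p 0 of 9 passed in limma, beside 0.213% of all genes, and 1 of 9, *Cish*, had an unadjusted p under 0.05. The groups overlapped for each of the 9 genes, whereas 14.0% of all genes did not overlap. The median log2 fold change of the 9 was 0.08, beside -0.01 for all genes.

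*Il2rb* had 95.7, 138 and 154 FPKM in *Med23*-deficient cells, around the 103, 125 and 134 of WT stage 2. Its log2 fold change was 0.08 (limma adjusted p = 0.908) with an interval of -0.41 to 0.56. *Il7r* had 89.0, 98.5 and 153 FPKM, so that replicates 1 and 2 lay below all WT stage 2 libraries and replicate 3 inside their range. The log2 fold change was -0.45 (95% confidence interval -1.0 to 0.10, limma adjusted p = 0.609). Without *Med23*-deficient replicate 3 it was -0.68 (limma adjusted p = 0.288), still short of a 2-fold change. *Il2rg* had 149, 182 and 148 FPKM, a log2 fold change of 0.27 with an interval of -0.05 to 0.60, and *Il15ra* 0.79, 0.88 and 1.36.

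Kinase and STAT5 levels overlapped with those of WT stage 2. *Jak1* had 105, 93.3 and 96.0 FPKM (interval of the log2 fold change -0.11 to 0.31) and *Jak3* 17.5, 18.5 and 20.0 (-0.08 to 0.53). *Stat5b* had 24.6, 19.4 and 14.7 FPKM, from the upper part of the WT stage 2 range to just below its lowest value (-0.78 to 0.41). *Stat5a* had 6.12, 5.91 and 6.04 FPKM, within the WT stage 2 range (-0.51 to 0.55).

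*Cish* rose, with uneven libraries. Its FPKM was 3.34, 5.16 and 11.5 in *Med23*-deficient cells against 1.01, 1.70 and 3.41 in WT stage 2, where the lowest of the first group lay just under the highest of the second. The log2 fold change was 1.27 (SE 0.48, 95% confidence interval 0.09 to 2.45, limma adjusted p = 0.478). Without *Med23*-deficient replicate 3 it was 0.84, and the call was also lost without *Med23*-deficient replicate 2 (1.35), WT stage 2 replicate 1 (1.01) or WT stage 2 replicate 2 (1.22). The limma adjusted p ran from 0.275 to 0.699 over the alternatives.

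Of the 65 list genes tested in this comparison 1 (1.54%) was called by fold and p, beside 2.11% of all genes, and 0 by adjusted p, beside 0.213%. The share by fold and p was thus not above that of all genes. The gene called was *Il2ra* (chromosome 2), which encodes the IL-2Rα chain that raises the affinity of the IL-2 receptor. Its FPKM was 3.66, 3.40 and 6.57 in *Med23*-deficient cells and 0.95, 1.02 and 1.5 in WT stage 2, with no overlap. The log2 fold change was 1.33 (SE 0.30, limma adjusted p = 0.206), between 1.08 and 1.47 when single libraries were left out, and past both thresholds of fold and p under all 19 alternatives. In WT stage 3 *Il2ra* had 0.70, 0.84 and 0.42 FPKM. *Il21r* was at 22.1, 26.5 and 31.4 FPKM, above each WT stage 2 library, with a log2 fold change of 0.56 (limma adjusted p = 0.26), and *Il4ra* at 9.06, 8.26 and 11.4 (0.71, limma adjusted p = 0.285). *Pim1* was at 16.5, 18.0 and 18.9 FPKM, likewise without overlap (0.83, limma adjusted p = 0.209). *Gzmb* was at 4.20, 7.01 and 7.55 FPKM, below all WT stage 2 libraries (-0.86, limma adjusted p = 0.301). *Tbx21* had 34.9, 38.2 and 43.6 FPKM, overlapping with WT stage 2 (0.43, limma adjusted p = 0.622). *Foxo1* lay below every WT stage 2 library (-0.68, limma adjusted p = 0.205). *Stat4* (0.68, limma adjusted p = 0.583) and the low gene *Socs2* (0.71, limma adjusted p = 0.52) lay above every one. *Bcl2*, *Lta*, *Runx1*, *Runx3*, *Gfi1* and *Pik3cd* overlapped.

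*Med23*-deficient stage 2 was lastly set beside WT stage 3 to place its levels. Genotype and stage differ together in this comparison, which shares its libraries with the other comparisons. Of the 9 genes *Il2rb* was called, lower, beside 2.86% of the 20846 genes tested, and it passed an adjusted p of 0.05, beside 1.33% of all genes. For 7 of the 9 (4 higher, 3 lower) the groups did not overlap, beside 14.2% of all genes, a share that includes genes near 0. Of these 7 genes only *Il2rb* passed a threshold.

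*Il2rb* was lower by a log2 fold change of -1.29 (SE 0.19, 95% confidence interval -1.76 to -0.81, limma adjusted p = 0.0454). The limma adjusted p passed in 5 of 19 alternatives (0.0129 to 0.324) and was lost without any single library. *Il7r* did not overlap, at 89.0 to 153 FPKM against 161 to 235, with a log2 fold change of -0.73 (limma adjusted p = 0.367), or -0.97 without *Med23*-deficient replicate 3 (limma adjusted p = 0.147). *Jak1* was lower in every library too (-0.19, limma adjusted p = 0.536). The 4 genes with higher values in every *Med23*-deficient library were *Stat5b* (0.47), *Stat5a* (0.43), *Il2rg* (0.33) and *Jak3* (0.22), with limma adjusted p between 0.363 and 0.483. *Cish* overlapped (0.24, or -0.18 without *Med23*-deficient replicate 3), as did *Il15ra* (-0.10).

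Of the 62 list genes tested here 6 (9.68%) passed the fold and p thresholds, beside 2.86% of all genes, a share that again includes genes near 0. With only the 11733 genes averaging 1 FPKM or more fitted, 259 were called higher and 300 lower. *Gzmb* (-4.62, limma adjusted p = 0.00149), *Stat4* (-1.15, limma adjusted p = 0.023), *Id2* (-1.08, limma adjusted p = 0.022) and *Bcl2* (-1.08, limma adjusted p = 0.314) were lower. The fold and p call of *Bcl2* was lost when replicate 3 of WT stage 3 (-0.86) or *Med23*-deficient replicate 1 (-1.0) or 2 (-0.84) was left out, and that of *Id2* when replicate 1 of either group was, where the log2 fold change fell just short of 2-fold. *Il4* (2.17, limma adjusted p = 0.0182) and *Il2ra* (1.71, limma adjusted p = 0.0697) were higher. *Il4* stood at 26.5 to 28.5 FPKM in *Med23*-deficient cells, above every WT library of either stage. *Id2* stood at 179 to 221, below every WT library.

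Ratios of 2 genes within a library depend little on how that library was scaled, and 6 pairs were compared in 18 tests. The log2 ratio of *Il2rb* to *Il7r* was -0.30, -0.43 and -0.26 in WT stage 2, 0.87, 0.81 and 0.57 in WT stage 3, and 0.10, 0.48 and 0.01 in *Med23*-deficient stage 2 cells. The 3 groups did not overlap, with *Med23*-deficient cells between the WT stages. *Med23*-deficient cells differed from WT stage 2 by 0.52 and from WT stage 3 by -0.55, and the WT stages by 1.08, each with p = 0.1 in a two-sided exact permutation test, the smallest that 3 libraries against 3 can give (Benjamini-Hochberg adjusted p = 0.18 over the 18 tests). The ratio of *Il2rb* to the partner chain gene *Il2rg* averaged -0.13 ± 0.28 in WT stage 2, 1.29 ± 0.26 in WT stage 3 and -0.33 ± 0.35 in *Med23*-deficient cells (SD, n = 3). Here the stage 2 groups overlapped (exact permutation p = 0.4) and WT stage 3 lay apart from both (exact permutation p = 0.1 each). *Cish* relative to *Stat5b* averaged -2.99 ± 0.57, -1.31 ± 0.26 and -1.54 ± 1.13 in the same order (SD, n = 3). Both WT stage 3 and *Med23*-deficient cells lay above WT stage 2 in every library (exact permutation p = 0.1 each) and overlapped with each other (exact permutation p = 0.7). The ratio of *Il15ra* to *Il2rb* was lower in WT stage 3 than in both stage 2 groups (exact permutation p = 0.1 each), which overlapped. That of *Jak1* to *Jak3* separated only *Med23*-deficient cells from WT stage 3 (-0.41, exact permutation p = 0.1). For *Stat5a* to *Stat5b* all groups overlapped.

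**Figure D4:**
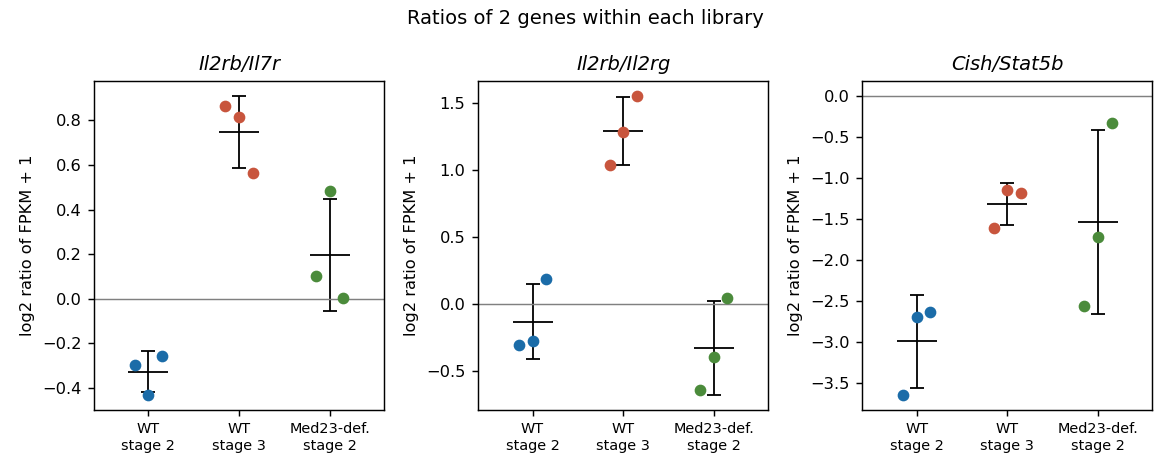
Log2 ratio of FPKM + 1 of 2 genes within each library (y axis, not starting at 0) for *Il2rb* to *Il7r*, *Il2rb* to *Il2rg* and *Cish* to *Stat5b*, by group, with points for libraries, a long bar for the mean and whiskers for the SD. The *Il2rb* to *Il7r* ratio separates all 3 groups, at -0.43 to -0.26, 0.57 to 0.87 and 0.01 to 0.48.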

How the data were processed

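The authors prepared libraries with the SMARTer Stranded Total RNA-Seq Pico kit, trimmed reads with Trimmomatic 0.36, aligned them with HISAT2 (mm10) and, from reads with at most 2 hits, had StringTie quantify the genes of GENCODE vM12. The deposited unit is FPKM, in 1 table with 3 libraries per group. Low values were not multiples of 1 read, so depth is unknown. Libraries were described as from 3 independent experiments without naming animals, so p-values measure the spread between libraries, which may be technical.

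From these values log2(FPKM + 1) was tested with limma 3.58.1 in R 4.3.3 (eBayes with a mean-variance trend) on the 6 libraries compared and all genes above 0 in at least 1 of them, with Benjamini-Hochberg adjustment over all of them. This scale understates the change of low genes. The script was tested on simulated data. Ratios were tested in Python 3.11.15 with scipy 1.17.1, and figures drawn with matplotlib 3.10.9. The 9 genes, the 7 pathway lists and the markers were chosen with earlier results of these data known. Named list genes are those past a threshold, with the most abundant of each list, except 1 gene that is not reported here. Some genes already named are also given in other comparisons, not all of them. *Il7*, *Il9*, *Tslp* and *Gab2* had no row in the table used. Leaving out all replicate 3 libraries was added after seeing the data.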

Additional observations from a re-analysis of the deposited data

How the results depend on the processing

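Depth is unknown, so low genes such as *Il15ra* carry an unstated counting error. The gene model *Gm23935* alone held 62.2% to 71.9% of the summed FPKM of a library, and the TPM scale divides by that sum. On the TPM scale the median log2 fold change over genes averaging 1 FPKM or more shifted from -0.05 to -0.13 (WT stages) and -0.15 (*Med23*-deficient against WT stage 2), and the genes called in the latter went from 165 higher and 272 lower to 88 and 251. Of the 9 genes, the number past fold and p in the WT comparison was 1 (*Il2rb*) on the TPM scale and 1 to 2 with single libraries left out. It was 0 in the *Med23*-deficient comparison without a filter on low values and on the TPM scale, and 0 to 1 with single libraries left out. The number past the adjusted p in the WT comparison was 0 in the Ballgown-style model, with the replicate block and without the replicate 3 libraries, and 0 to 1 with single libraries left out. Against WT stage 3 it was 0 without a filter, on the TPM scale, with a common upper quartile, quantile normalization, no trend, the Ballgown-style model, the replicate block or no replicate 3 libraries, and 0 with single libraries left out. The other calls of the 9 genes kept their side under the settings run, except those named in the report. Among list genes *Il4*, *Lta* and *Tbx21* of the WT comparison were not called in the Ballgown-style model. *Il4ra* was not called on the TPM scale, and neither *Il4ra* nor *Lta* was called without the replicate 3 libraries. Where the cause is not plain from fewer genes or libraries, it was not tested.

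Signs turned only for values that passed no threshold. Between WT stages *Il15ra* was -0.64 in the Ballgown-style model, -0.17 without the replicate 3 libraries and -0.12 to 0.35 with single libraries left out, *Il2rg* 0.028 with a common upper quartile and -0.16 to 0.042, and *Jak3* -0.091 on the TPM scale, -0.045 on that scale without *Gm23935* and -0.073 to 0.10. Between *Med23*-deficient and WT stage 2, on the TPM scale *Il2rb* was -0.053 (-0.062 to 0.28 with single libraries left out), *Jak1* -0.030 and *Stat5a* -0.082 (-0.18 to 0.17, -0.0072 without *Gm23935*, -0.078 in the Ballgown-style model). In the same comparison *Il15ra* was 0.0032 and 0.016 with pseudocounts of 0.1 and 0.01, 0.017 with a common upper quartile and -0.21 to 0.25, and *Stat5b* 0.12 without the replicate 3 libraries. Against WT stage 3 *Cish* was -0.12 without the replicate 3 libraries and -0.18 to 0.58, and *Il15ra* -0.33 to 0.049.

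The replicate number does not pair the libraries by any label. Deviations of same-numbered libraries correlated at 0.03 to 0.16 in the WT comparison, where each library correlated best with its own number, at 0.004 to 0.14 between the stage 2 groups and at 0.04 to 0.27 in the remaining one, where this did not hold throughout. With the replicate block the 9 genes past fold and p stayed at 2, 1 and 1 in the 3 comparisons and those past the adjusted p numbered 0, 0 and 0.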

Other observations

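Genes whose log2(FPKM + 1) followed *Il2rb*, *Il7r* or *Cish* most closely were read off over the 9 libraries, among 9593 genes averaging 1 FPKM or more, leaving out gene models known by a number. The 9 libraries fall into 3 groups and share the way they were scaled, so these correlations are descriptions without a p. The 5 genes closest to *Il2rb* were *Ifngr1* (Pearson r = 0.98), *Fgl2* (0.973), *Nsmaf* (0.972), *Abcb1a* (0.969) and *Gvin1* (0.967). *Ifngr1*, the gene of the ligand-binding interferon gamma receptor chain, averaged 25.0 FPKM in WT stage 2, 106 in WT stage 3 and 30.6 in *Med23*-deficient stage 2 cells, and *Fgl2* averaged 17.1, 90.2 and 20.1. The 5 closest to *Il7r* were *Gpr183* (0.966), *Zfp142* (0.961), *Kif13b* (0.955), *Rhoq* (0.955) and *Txnrd2* (0.948). *Gpr183*, an oxysterol receptor that guides lymphocyte migration, averaged 11.9 FPKM in WT stage 2, 18.3 in WT stage 3 and 7.0 in *Med23*-deficient stage 2 cells. The 5 closest to *Cish* were *Pcyt2* (0.988), *Vars* (0.938), *H2-Q4* (0.93), *Bbc3* (0.929) and *Polg* (0.92). *Bbc3*, the gene of the pro-apoptotic protein PUMA, averaged 4.15, 7.01 and 7.12 FPKM in the same order of groups.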
